A study of Mus musculus with 12 samples.

Results

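The 6 liver arrays of mice with 2 copies of the Lmna G609G knock-in allele (KI) were set against the 6 of wild-type mice (WT), with diet as a covariate, so that each value is a genotype difference averaged over the diets. This comparison used 12 of the 12 arrays of the series, chosen by genotype and diet in their titles. The mice were males on a C57BL/6N background, 110 days old, taken after 6 hours without food. From 7 weeks of age each genotype was fed either control food (CD) or methionine-restricted food (MR), so that WT_CD, WT_MR, KI_CD and KI_MR hold 3 arrays each. All groups were bred from heterozygous crosses, were kept apart by sex and genotype, and received a mix of solid and crushed pellets. The knock-in is carried by every cell of the body, so liver and whole-body effects of the allele cannot be told apart. Whether every array comes from an animal of its own is not stated, and the p-values therefore cover the spread among these arrays, which may be technical.

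Lmna encodes lamins A and C, filaments that line the inside of the nuclear membrane. The G609G allele opens a cryptic splice site in the message, and the shortened protein, progerin, stays farnesylated and attached to the membrane; the same defect causes Hutchinson-Gilford progeria in people, and mice with it are small, thin and short-lived. In liver, many genes differ between males and females because the sexes release growth hormone in different rhythms, and male-biased genes need the pulsed male rhythm. The liver also makes cholesterol and bile acids, and it holds chaperones and RNA-binding proteins whose messages follow temperature.

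Values are log2 probe intensities, and a difference is KI minus WT on that scale with its standard error (SE) from 1 limma fit over 19938 genes, n = 6 arrays per genotype. A gene rose or fell where its Benjamini-Hochberg adjusted p over all genes was below 0.05. Medians of linear intensity ran from 82 to 90 between arrays. KI_CD replicate 1 stood apart: its mean correlation with its own group was 0.986, against 0.989 to 0.994 for the other 11 arrays. In all arrays Xist, the RNA of the inactive X chromosome, lay between 4.95 and 5.32, below the lower quartile of genes (5.49 to 5.67), and the Y-linked Eif2s3y between 8.70 and 9.42, as the male label says. The hepatocyte markers lay high everywhere, with a summed linear intensity of 106101 to 115183 in WT and 114964 to 120014 in KI arrays.

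Lmna itself was at 7.39, 7.34 and 7.39 in WT_CD, 7.63, 7.55 and 7.45 in WT_MR, 8.37, 7.85 and 7.79 in KI_CD, and 8.02, 7.75 and 7.78 in KI_MR. Every KI array was above every WT array. The difference was 0.47 ± 0.10 (limma adjusted p = 0.0342). An exact permutation test within diet, over 400 arrangements, gave a two-sided p = 0.005, the smallest it can give. The limma call was lost in 9 of 12 fits with an array left out, in which the difference ran from 0.37 to 0.51. The probe set reads lamin A, lamin C and progerin messages together, so it cannot serve as a check of the genotypes.

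The averaged comparison called 555 of 19938 genes (2.78%), 391 higher (1.96%) and 164 lower (0.823%) in KI liver. The rises were small, with a median of 0.37 among the higher genes and -0.43 among the lower ones. Only 26 genes moved by more than 1 on the log2 scale, 7 up and 19 down, so most large changes were falls. All 555 had the same sign in both diets, and in 461 the KI and WT arrays did not overlap within either diet, against 4.01% of all genes (2.53% higher and 1.47% lower). In 295 of them all 6 KI arrays lay on 1 side of all 6 WT arrays, against 2.05% of all genes. The average that called these genes favours like signs and separate arrays, so neither is a separate result. Among all genes 61.1% were below 0, with a median difference of -0.04. Differences within each diet came from 1 fit of the 4 group means, in which both diets share the estimate of the spread. There, 475 of the 555 genes passed in neither diet. Of the 555, 10 passed on CD, where 16 genes passed in all (0.0802%), and 74 on MR, where 94 did (0.471%).

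Male-biased genes gave the deepest falls. Cyp4a12a and Cyp4a12b, which encode omega-hydroxylases of fatty acids and arachidonic acid, and the fatty acid elongase gene Elovl3 were each more than 10 times lower in KI liver. Cyp4a12a had a lowest, median and highest level of 9.51, 11.02 and 12.07 in WT and of 5.46, 7.38 and 8.54 in KI arrays. The arrays of the 2 genotypes did not overlap, and the level was 14.2-fold higher in WT (difference -3.83 ± 0.29, limma adjusted p = 0.000169). Elovl3 had 7.42, 10.28 and 11.21 in WT against 5.0, 5.72 and 7.23 in KI arrays, a 14.3-fold difference (-3.83 ± 0.45, adjusted p = 0.00372). Cyp4a12b ran from 8.68 to 11.93 in WT and from 5.46 to 8.24 in KI arrays (-3.63 ± 0.28). Close paralogs such as Cyp4a12a and Cyp4a12b can share signal on these arrays, so their 2 values are not independent.

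**Figure D1:**
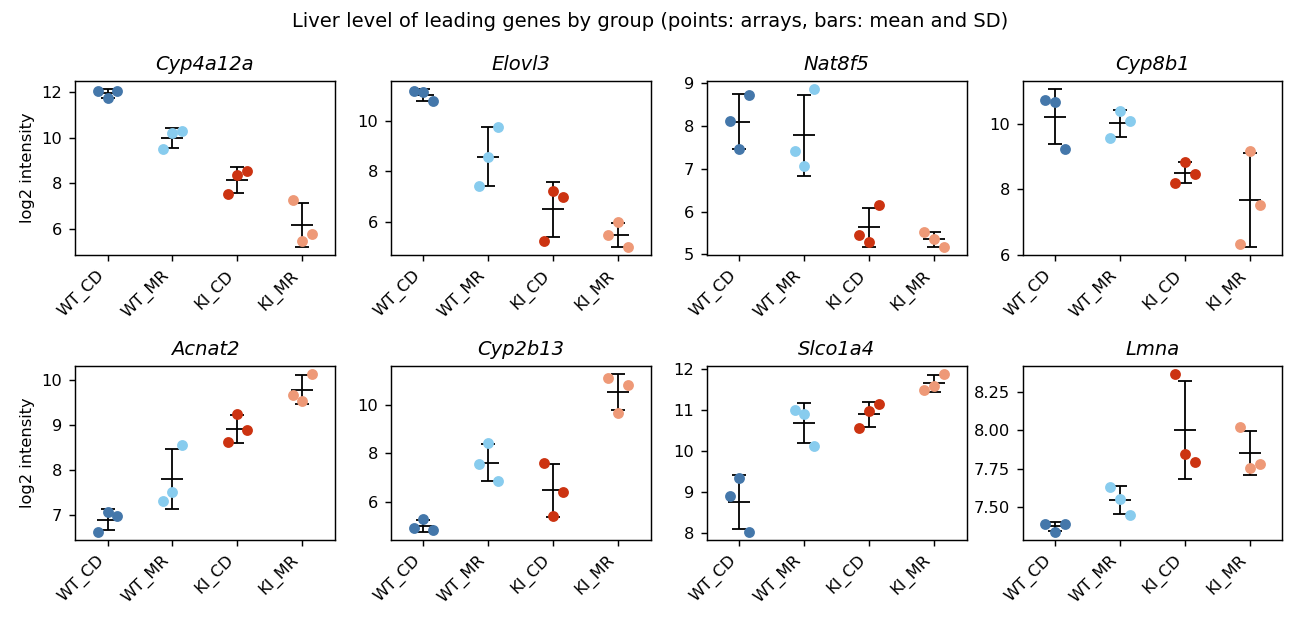
Level of 8 leading genes on each array (y axis, log2 intensity; x axis, the 4 groups; points are arrays and bars the group mean with SD, n = 3). Cyp4a12a, Elovl3, Nat8f5 and Cyp8b1 are lower and Acnat2 and Lmna higher in every KI array than in every WT array. Cyp2b13 and Slco1a4 separate the genotypes only within each diet, and on CD the closest KI and WT levels of Cyp2b13 are both dim.

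Of 26 male-biased genes measured, 7 fell and none rose, and 25 were below 0. The share called was 26.9%, against 2.78% of all genes, the share to set beside every list below. The list median was -1.05 against -0.04 over all genes, and it joined -1.44 on CD to -0.32 on MR, a gap that was not tested for the list. The other members that fell were Keg1 (-2.05 ± 0.26), which encodes a glycine N-acyltransferase-like protein, the complement regulator gene Susd4 (-1.33), the peroxisomal coenzyme A diphosphatase gene Nudt7 (-1.09) and the sulfotransferase gene Sult5a1 (-0.43). The calls of Susd4, Sult5a1 and Nudt7 were lost in 10, 9 and 3 of 12 fits with an array left out. Those of Keg1, Elovl3 and both Cyp4a12 genes were lost in none. The transporter gene Slco1a1 (-2.17), the repressor gene Bcl6 (-1.52) and the steroid dehydrogenase gene Hsd3b5 (-1.71) did not pass. Hsd3b5 had opposite signs in the diets, -3.80 on CD and 0.37 on MR, where its WT levels were only 5.17 to 5.52. Without KI_CD replicate 1 the list median was -0.81.

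The female-biased list leaned the other way, with 2 of 21 measured members higher (9.52%), none lower, 19 above 0 and a median of 0.64, which was 0.93 on CD and 0.34 on MR. Cyp2b13, a female-biased P450 gene, was at 4.81, 6.08 and 8.42 (lowest, median, highest) in WT and at 5.39, 8.63 and 11.10 in KI arrays. The genotypes overlapped as a whole but not within a diet (2.20 ± 0.42, limma adjusted p = 0.0232). Its 3 WT_CD levels were below the lower quartile of their arrays, so the difference there is a bound. With them raised to that quartile the average was 1.89. KI_CD replicate 2 (5.39), which was not raised, was also below the lower quartile of its array (5.55). It lay close to the highest WT_CD level (5.29), so the lack of overlap on CD rests on dim levels. The call of Cyp2b13 was lost in 3 of 12 fits with an array left out. Slco1a4, which takes up bile acids and other organic anions, ran from 8.02 to 11 in WT and from 10.55 to 11.88 in KI arrays (1.55 ± 0.27). Cyp2b9 had the highest difference of the list, 2.46, and missed the threshold (adjusted p = 0.0791). Its difference was 4.59 on CD and 0.34 on MR, and its WT mean was 8.20 on CD and 13.09 on MR. In the growth hormone and IGF list none of 15 members passed. The receptor gene Ghr was at -0.35, the target genes Socs2 and Cish at 0.53 and 0.55, and Igf1 at -0.02 ± 0.06 (adjusted p = 0.896).

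Several further falls lay outside any sex-biased list. The N-acetyltransferase genes Nat8 and Nat8f5, close relatives, both fell. Nat8f5 had 7.07, 7.79 and 8.87 (lowest, median, highest) in WT and 5.17, 5.41 and 6.15 in KI arrays, without overlap (-2.45 ± 0.30, limma adjusted p = 0.00382). The KI mean was below the lower quartile of genes, and with dim arrays raised to that quartile the fall was at least 4.96-fold. Nat8 ran from 8.23 to 9.15 in WT and from 6.55 to 7.59 in KI arrays (-1.63 ± 0.18). Rarres1, a retinoic acid receptor responder (-1.61), the neprilysin gene Mme (-1.07), the lipid droplet gene Fitm1 (-1.38), the endothelial lipase gene Lipg (-1.33) and Fam102a (-0.99) were also lower. Leaving out an array ended the call of Fitm1 in 7 of 12 fits, of Lipg in 6, of Fam102a in 2 and of Rarres1 and Mme in none.

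The highest rise that no sex-biased list held was that of Acnat2, a gene for a peroxisomal acyltransferase that joins fatty acids to amino acids. It was at 6.61, 7.19 and 8.55 in WT and at 8.61, 9.39 and 10.15 in KI arrays. The genotypes did not overlap (2.02 ± 0.20, limma adjusted p = 0.0015), and the rise was alike in size on CD (2.03) and MR (2.0). Ildr2 (1.19 ± 0.14), which encodes a membrane protein linked to liver lipid, the leukocyte receptor gene Lilr4b (1.04 ± 0.16), the metal reductase gene Steap2 (0.97), the transcription factor gene Tox (0.92) and the ubiquitin ligase adaptor gene Wsb1 (0.91) rose too. A second, dim probe set of Steap2 gave -0.02. The glutathione transferase gene Gstt3 (0.97), Nrbp2 (0.84), the vasopressin receptor gene Avpr1a (0.82) and Mpzl1 (0.81) completed, with Cyp2c39, Rbm3 and Cirbp, the 15 largest rises without overlap within a diet. Leaving out an array ended the call of Wsb1 in 10 of 12 fits, of Mpzl1 in 7, of Avpr1a in 4 and of Gstt3 in 3.

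**Figure D2:**
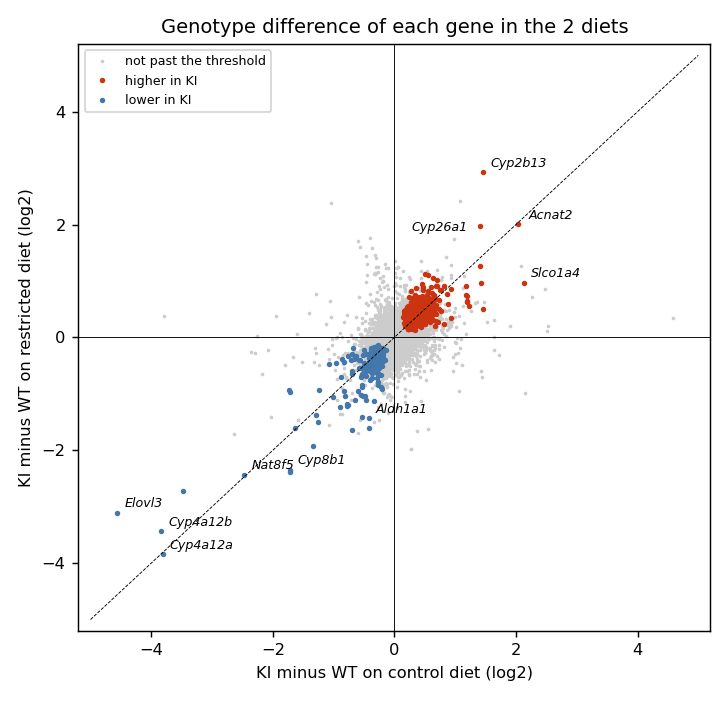
Genotype difference of each gene on the control diet (x axis, log2) and on the restricted diet (y axis, log2); each point is a gene, coloured where the averaged difference passed the threshold, and the dashed line marks equal differences. The called genes lie to the lower left and upper right because the average selects them; Acnat2 lies near the line (2.03 on CD, 2.0 on MR) and Slco1a4 below it (2.13 and 0.97), while the place of Cyp2b13 is set by dim WT_CD levels.

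The cold-inducible RNA-binding protein genes Rbm3 and Cirbp rose, and 4 cytosolic heat shock genes fell. RBM3 and CIRBP are made when body or cell temperature drops, and heat shock proteins when it rises. Rbm3 had 10.34, 10.49 and 10.61 (lowest, median, highest) in WT and 11.08, 11.31 and 11.59 in KI arrays. This was a 1.82-fold rise with no overlap (0.86 ± 0.07, limma adjusted p = 0.000239), and its other 2 probe sets gave 0.93 and 0.87. Cirbp ran from 7.77 to 8.38 in WT and from 8.70 to 9.48 in KI arrays, also apart (0.83 ± 0.14, adjusted p = 0.0158). Both calls held in all 12 fits with an array left out. Body temperature was not analysed here.

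Among the 24 measured members of the list of heat shock, cold and unfolded protein response genes, 2 rose and 4 fell (25%), with 18 below 0 and a median of -0.10. The 4 that fell encode cytosolic chaperones. The inducible HSP70 gene Hspa1a ran from 7.11 to 7.36 in WT and from 6.71 to 6.99 in KI arrays, without overlap (-0.37 ± 0.07, limma adjusted p = 0.0224); its near-identical copy Hspa1b can share this signal. The HSP40 gene Dnaja1 (-0.41 ± 0.09, and -0.32 by a second probe set) came close to overlap, its lowest WT and highest KI levels both rounding to 10.82. The HSP90 gene Hsp90aa1 (-0.57 ± 0.13, and -0.55 and -0.59 by 2 further probe sets) and the HSP110 gene Hsph1 (-0.60 ± 0.14) overlapped between genotypes. Of the other cytosolic members, Dnajb1 (-0.44), Hspb1 (-0.29) and the constitutive HSP70 gene Hspa8 (-0.04) did not pass. Nor did the endoplasmic reticulum genes Hspa5 (-0.05), Hsp90b1 (0.04), Hyou1 (-0.16), Creld2 (-0.18) and Dnajb9 (-0.40). Leaving out an array ended the call of Hspa1a in 3 of 12 fits, those of Dnaja1 and Hsp90aa1 in 8 each and that of Hsph1 in 11.

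Heat shock factor 1 binds inverted repeats of GAA, so the starts of these genes are shown with such repeats in capitals. The search used GAANNTTC and TTCNNGAA for 2 units, each its own reverse complement, and GAANNTTCNNGAA and TTCNNGAANNTTC for 3 units, each the reverse complement of the other, with overlaps allowed. Sequences are RefSeq promoters on GRCm38.p6, from 250 bases before to 50 after an annotated start, read 5′ to 3′ on the strand of the gene; 3 of the 4 genes had an entry, Hsp90aa1 excepted.
Hspa1a (chr17:34972107-34972406, minus strand): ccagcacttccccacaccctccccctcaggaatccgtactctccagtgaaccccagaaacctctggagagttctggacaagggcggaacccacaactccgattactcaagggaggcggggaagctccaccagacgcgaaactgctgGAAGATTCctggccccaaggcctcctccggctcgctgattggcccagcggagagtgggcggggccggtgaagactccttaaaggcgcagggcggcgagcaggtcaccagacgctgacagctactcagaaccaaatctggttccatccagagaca
Dnaja1 (chr4:40722218-40722517, plus strand): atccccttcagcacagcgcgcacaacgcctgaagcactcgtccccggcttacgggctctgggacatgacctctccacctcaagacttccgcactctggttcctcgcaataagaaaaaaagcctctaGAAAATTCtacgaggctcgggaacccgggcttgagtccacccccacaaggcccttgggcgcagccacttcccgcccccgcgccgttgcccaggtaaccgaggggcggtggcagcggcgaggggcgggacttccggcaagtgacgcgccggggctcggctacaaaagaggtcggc
Hsph1 (chr5:149636287-149636586, minus strand): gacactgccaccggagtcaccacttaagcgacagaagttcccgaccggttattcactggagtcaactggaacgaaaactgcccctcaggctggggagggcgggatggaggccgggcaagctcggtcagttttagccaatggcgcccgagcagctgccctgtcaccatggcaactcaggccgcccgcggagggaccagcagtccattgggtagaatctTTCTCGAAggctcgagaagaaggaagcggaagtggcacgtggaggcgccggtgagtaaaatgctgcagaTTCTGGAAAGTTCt
A 2-unit repeat occurred in 15.1% of all 32851 promoters and a 3-unit repeat in 0.603%. The printed promoter of Hspa1a held 1 pair, that of Dnaja1 1 pair and that of Hsph1 3 pairs and 1 triple, the triple lying after its start. Over the 6 promoters of these 3 genes, several of which overlap, 4 held a pair and 2 a triple. The other Dnaja1 promoters, not printed, held no repeat, and the 2 triples are 1 site in overlapping Hsph1 entries. The Cirbp promoters held no repeat, and that of Nat8f5, searched alike, held 1 pair. A match is a description of letters and no sign of binding.

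**Figure D3:**
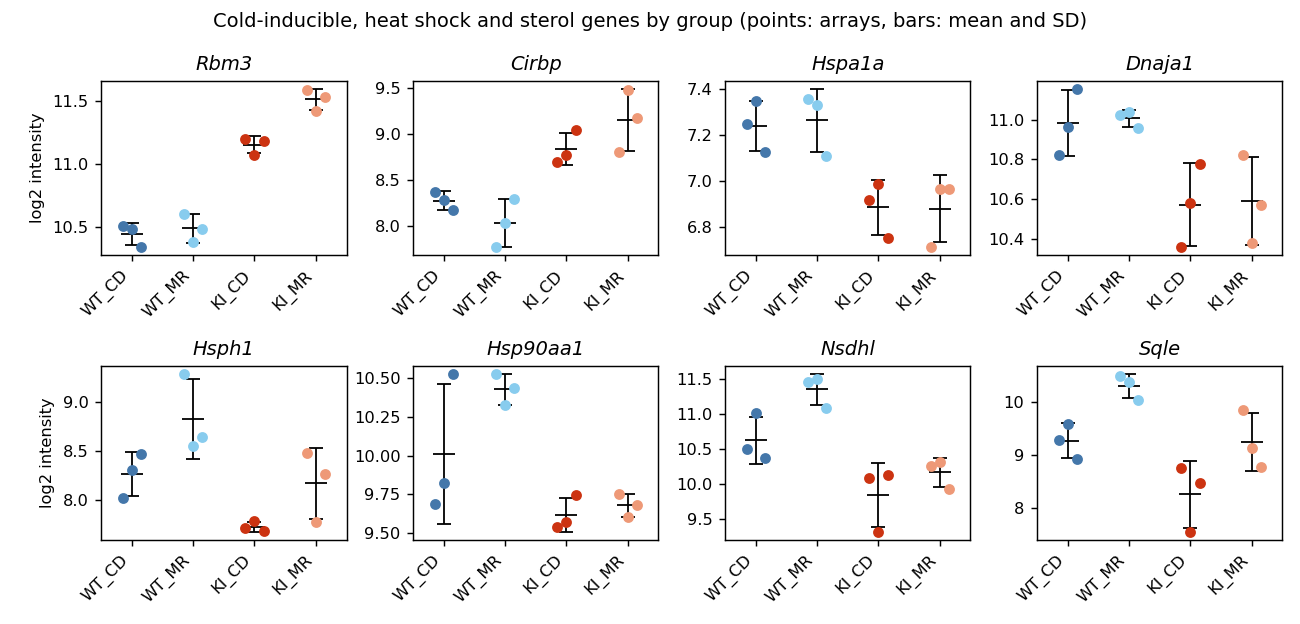
Level of 2 cold-inducible, 4 heat shock and 2 sterol synthesis genes on each array (y axis, log2 intensity; x axis, the 4 groups; points are arrays and bars the group mean with SD, n = 3). Rbm3 and Cirbp are higher and Hspa1a lower in every KI array, and so is Nsdhl, whereas Hsph1, Hsp90aa1 and Sqle overlap between the genotypes.

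Cholesterol synthesis genes fell as far as they passed. Of 19 measured members 4 fell (21.1%) and none rose, 18 were below 0 and the median was -0.58. Nsdhl, a sterol dehydrogenase, ran from 10.37 to 11.50 in WT and from 9.32 to 10.31 in KI arrays, without overlap (-0.98 ± 0.17, limma adjusted p = 0.0158). Tm7sf2, a sterol reductase, was lower by a like amount (-0.92 ± 0.16), as was Sqle, the squalene epoxidase (-1.03 ± 0.22). Mvd, the mevalonate decarboxylase, had -0.79 ± 0.17. The calls of Nsdhl and Tm7sf2 held in all 12 fits with an array left out; that of Sqle and that of Mvd were lost in 8 each. Idi1 (-1.02), Msmo1 (-0.84) and Hmgcs1 (-0.70) did not pass. The regulator gene Srebf2 was at 0.13. The list median was -0.22 on CD and -0.84 on MR, a difference that was not tested for the list.

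Bile acid genes moved both ways. Cyp8b1, whose enzyme directs synthesis to cholic acid, was 4.09-fold higher in WT, with 9.24, 10.24 and 10.74 (lowest, median, highest) in WT and 6.32, 8.34 and 9.19 in KI arrays (-2.03 ± 0.42, limma adjusted p = 0.0305); its call was lost in 6 of 12 fits with an array left out. The FGF receptor gene Fgfr4, which relays the intestinal signal restraining bile acid synthesis, rose (0.34 ± 0.07), a call lost in 6 such fits. With Slco1a4 this made 2 rises and 1 fall among 23 members (13%). Cyp7a1, which encodes the rate-limiting enzyme, had an averaged value of -0.86 (adjusted p = 0.217) that joined 0.27 on CD to -1.98 on MR.

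Fatty acid oxidation genes were mostly below 0. Of 27 members of the list of PPARA targets 2 fell (7.41%), none rose, 22 were below 0 and the median was -0.29. On CD the median was -0.04, against -0.02 over all genes, and on MR -0.41, against -0.04. The fallen members were Ppara itself (-0.37 ± 0.07, limma adjusted p = 0.026), the nuclear receptor that switches these genes on, and the fatty acid binding protein gene Fabp1 (-0.38 ± 0.08). Their calls were lost in 5 and 9 of 12 fits with an array left out. Cpt2 was at -0.39 and Hadha at -0.28, both short of the threshold. Among 24 fatty acid and triglyceride synthesis genes none passed by limma, and their median was -0.11. Their lowest adjusted p values were those of Slc25a1 (-0.20), Fads2 (-0.39) and Srebf1 (0.65).

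In the xenobiotic list, 3 of 19 members rose and 1 fell (21.1%). The P450 genes Cyp2c39 (0.99 ± 0.18) and Cyp2c37 (0.81 ± 0.16) and the transferase gene Gstt3 were higher. Aldh1a1, which turns retinal into retinoic acid, was lower (-0.93 ± 0.17), with 12.16, 12.67 and 12.82 in WT against 11.21, 11.64 and 12.13 in KI arrays and no overlap. Zonation genes did not move as blocks. Among 20 pericentral genes, Lgr5, a Wnt target and receptor (0.58 ± 0.09), and Avpr1a rose and the ammonium transporter gene Rhbg fell (-0.98 ± 0.20). Among 17 periportal genes the histidase gene Hal (0.55) and the immunoglobulin receptor gene Pigr (0.48) rose and Cyp2f2 fell (-0.55 ± 0.11). The shares called were 15% and 17.6%, the medians -0.09 and 0.20. With an array left out, the calls of Pigr, Hal, Rhbg, Cyp2f2 and Avpr1a were lost in 10, 7, 7, 5 and 4 of 12 fits. The call of Cyp2c37 was lost in 6, of Gstt3 in 3, of Cyp2c39 in 2 and those of Lgr5 and Aldh1a1 in none.

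**Figure D4:**
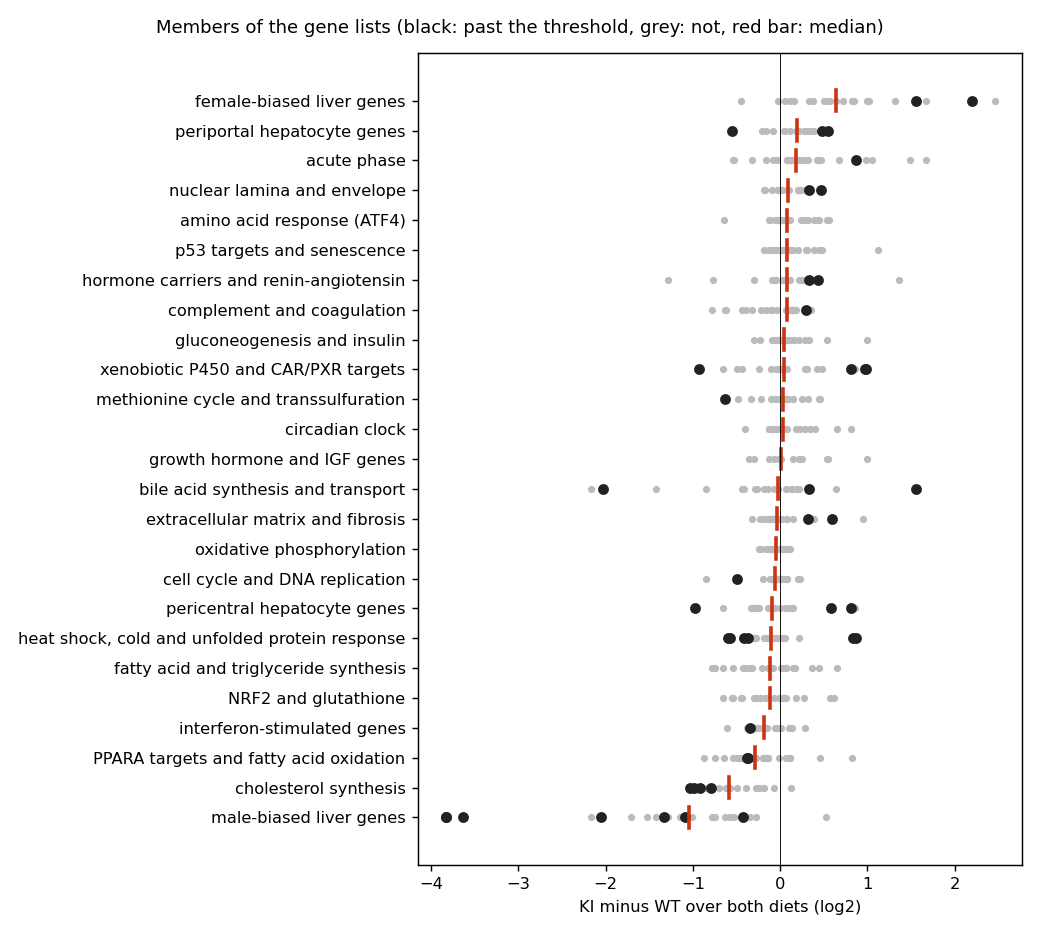
Averaged genotype difference (x axis, log2) of the measured members of 25 pathway lists (rows, ordered by median); black points passed the threshold, grey points did not, and red bars mark list medians. The male-biased and cholesterol synthesis lists lie farthest to the left at -1.05 and -0.58, and the female-biased list farthest to the right at 0.64.

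The nuclear lamina and envelope list had 2 rises among 20 members (10%), Lmna and the farnesyltransferase subunit gene Fnta (0.33 ± 0.06, limma adjusted p = 0.0224), whose enzyme attaches the farnesyl group to prelamin A. Zmpste24, which encodes the protease that clips it off, was at 0.20 ± 0.06 and missed the threshold (adjusted p = 0.0928). A second probe set of Zmpste24 gave 0.02. The call of Fnta was lost in 3 of 12 fits with an array left out. None of 22 p53 and senescence genes passed by limma, with Gadd45g at 1.12 and Cdkn2a at -0.13; Cdkn1a was not analysed here. Of 23 cell cycle genes only cyclin E1 (Ccne1, -0.49) fell (4.35%, against 2.78% of all genes). The call of Ccne1 was lost in 9 of 12 fits with an array left out.

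Methionine and stress lists gave few calls. Of 18 methionine cycle and transsulfuration genes the taurine synthesis gene Csad fell (5.56%, against 2.78% of all genes). Its difference was -0.63 ± 0.15 (limma adjusted p = 0.0433). The call of Csad was lost in 10 of 12 fits with an array left out. Cth (0.44) and Cbs (0.25) did not pass. None of 24 amino acid response, 22 NRF2, 19 gluconeogenesis and insulin, 18 circadian clock and 29 oxidative phosphorylation genes passed by limma. Fgf21, a liver hormone of amino acid shortage, was at -0.64, with 0.37 on CD and -1.65 on MR. The value above 0 on CD rests on KI_CD replicate 1 (7.97). KI_CD replicates 2 and 3 (6.25 and 6.17) lay below the WT_CD arrays (6.32 to 6.48). Igfbp1 was at 1.0 (adjusted p = 0.15).

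The lipopolysaccharide binding protein gene Lbp rose (0.87 ± 0.21), the only one of 27 acute phase genes to pass (3.70%, against 2.78% of all genes). The metallothionein genes Mt1 (1.49) and Mt2 (1.67) did not pass. Angiotensinogen (Agt, 0.43 ± 0.09) and the thyroid hormone receptor gene Thra (0.34 ± 0.06) rose among 16 hormone carrier and renin-angiotensin genes (12.5%). The lectin pathway protease gene Masp1 (0.29 ± 0.06) rose among 28 complement and coagulation genes (3.57%). In the matrix list the membrane protease gene Mmp14 (0.59 ± 0.13) and decorin (Dcn, 0.32 ± 0.07) rose, 2 of 24 (8.33%). The list as a whole did not rise, with 14 members below 0 and a median of -0.04. Of 19 interferon-stimulated genes Oas2 (-0.34 ± 0.08) fell (5.26%), and 15 were below 0, as were 61.1% of all genes. Most of these calls were lost with an array left out, that of Oas2 in 10 of 12 fits, Lbp in 9, Agt in 8 and Masp1, Mmp14 and Dcn in 7 each; that of Thra was lost in none.

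Bulk arrays cannot tell fewer cells of a type from less RNA per cell. The Kupffer cell and macrophage markers had 11 of 12 members below 0, a median of -0.28 and no call, and their summed linear intensity was 7101 to 12753 in WT and 7029 to 8871 in KI arrays; their part in the lower level of Oas2 was not tested. Stellate cell markers summed to 7763 to 9502 in WT and 8939 to 11938 in KI arrays, a sum that includes Dcn itself. It also includes Des, at 10.12 on KI_MR replicate 2 against 6.87 to 7.82 on all others. By gene, 6 markers were above 0 and 4 below, with a median of 0.06. Dcn was the only one of 10 that passed (10%), and the part of these cells in the rises of Dcn and Mmp14 was not tested. Of the 10 neutrophil markers only Retnlg (0.31 ± 0.06) rose (10%), and their summed intensity was 571 to 614 in WT and 603 to 642 in KI arrays. Hepatocyte, cholangiocyte, sinusoidal endothelial, T and NK, B, erythroid, adipocyte and pancreatic acinar markers gave no call by limma. However, KI_CD replicate 1 and KI_MR replicate 3 stood apart in the epithelial genes Krt19 and Epcam and in 1 acinar gene, Ctrb1. Krt19 was at 7.67 and 8.69 there against 6.13 to 6.52 in the other 10 arrays, Epcam at 6.11 and 6.04 against 5.17 to 5.46, and Ctrb1 at 7.92 and 8.29 against 6.0 to 6.86. The acinar genes Cela1 (6.60 and 6.41), Cpa1 (5.81 and 5.70) and Cel (5.46 and 5.46) were not raised on these arrays. Nor was the cholangiocyte gene Sox9 (7.32 and 7.09). The summed intensity of the 6 cholangiocyte markers was 381 to 447 in WT and 375 to 819 in KI arrays, and that of the 5 acinar markers 345 to 496 and 367 to 588. Without these 2 arrays, a choice made after the data were seen, 275 genes were called, 194 of them among the 555. All 555, which had been chosen with the remaining arrays among the 12, kept their sign. Lmna (0.39) and Cyp4a12a (-3.57) kept their call, and the median of male-biased liver genes was -0.80. Cyp2b13, Cyp8b1, Hsph1, Hsp90aa1 and Dnaja1 lost their call. Of the erythroid list 3 of 9 members were measured.

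Whether a genotype difference depended on the diet was tested by the interaction term. No gene passed by limma (0 of 19938, 0.0%). An unadjusted limma p below 0.05 was found for 824 genes (4.13%), a share no higher than that threshold itself. Among them were 43 of the 555 called genes (7.75%). Within these 43, Aldh1a1 had the smallest unadjusted interaction p (8.2e-05), at -0.42 on CD and -1.43 on MR, followed by Cyp2f2 (-0.22 and -0.87), Mmab (-0.20 and -0.91) and Aldh1a7 (-0.41 and -1.60), all lower in KI on both diets. Of the genes whose interaction had the opposite sign, Sult5a1 was at -0.67 on CD and -0.19 on MR, Impg2 at 0.36 and 0.88, Rbm3 at 0.71 and 1.02 and Masp1 at 0.16 and 0.43. Across all 19938 genes the differences on CD and on MR, which share no array, correlated at 0.489. The genes are not independent, and each was read by the same probe set on both diets.

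The number of called genes moved with single arrays. Left out in turn, they gave 145 to 1874 calls. The count went up without 2 of them, to 1874 without WT_MR replicate 3, of which 46.0% were higher, and to 853 without KI_CD replicate 1. Leaving out WT_CD replicate 3 gave 381. Each of the other 9 lowered it by more than 1.5 times, to 362 and 360 without KI_MR replicate 2 and WT_CD replicate 2, 295 and 264 without KI_CD replicates 2 and 3, 276 and 145 without KI_MR replicates 1 and 3, 172 without WT_CD replicate 1, and 235 and 222 without WT_MR replicates 1 and 2. In all 12 fits 123 genes kept their call, 90 higher and 33 lower, among them both Cyp4a12 genes, Elovl3, Nat8, Nat8f5, Keg1, Rarres1, Mme, Nsdhl, Tm7sf2, Acnat2, Ildr2, Lilr4b, Tox, Slco1a4, Rbm3 and Cirbp. The 555 genes kept their sign in all 12 fits, which share most arrays with the fit that chose them.

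**Figure D5:**
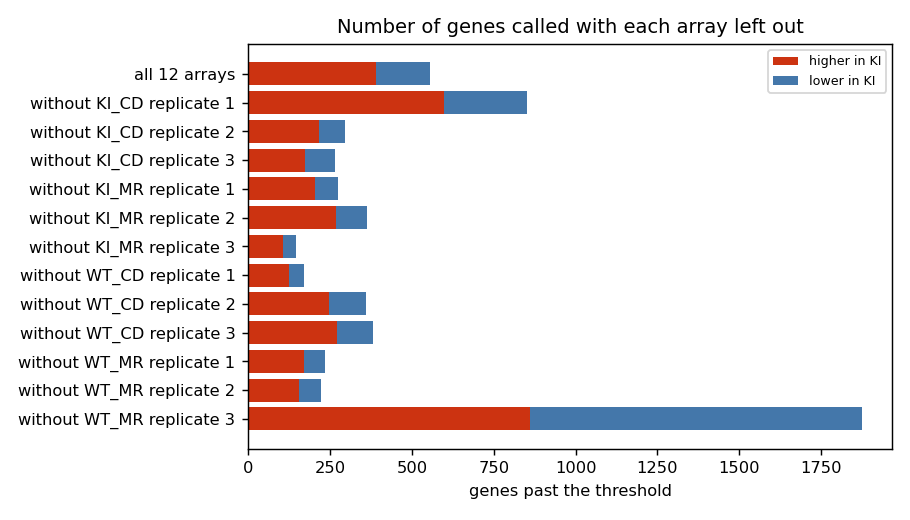
Number of genes past the threshold (x axis) with all 12 arrays and with each array left out (rows), split into genes higher (red) and lower (blue) in KI liver. The count is 555 with all arrays and runs from 145 to 1874.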

How the data were processed

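Total liver RNA (Trizol, then RNeasy) was biotin-labelled and hybridised, per the labels' protocols. The deposited values are linear intensities between 10 and 20042, given as whole numbers and already alike in scale across arrays; how the authors corrected the background and scaled them was not given in the sources used here. At an intensity of 32, 1 unit is 0.0444 on the log2 scale, and 13.98% of values were dimmer. Their log2 was analysed as deposited. Of 35512 probe sets, 21789 carried 1 symbol, 1621 several and 12102 none; the brightest per symbol gave 19938 genes, 19856 of them in RefSeq (GRCm38.p6).

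Genotype and diet were fitted additively in limma 3.58.1 (R 4.3.3; 9 residual and 3.08 prior degrees of freedom), two-sided. Within-diet values and the interaction came from the 4 group means. The fit was tested on simulated data. No batch was given.

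The comparison and the 25 pathway and 11 cell type lists were chosen with earlier results of these data known. Named genes are the 15 largest rises and falls without overlap within a diet (predicted loci left out), the 4 list members with the smallest p and any called, 12 genes fixed by name (such as Lmna, Igf1 and Cyp7a1), and the 4 smallest interaction p each way among called genes. Others were chosen after their values were seen. A bound raises dim arrays to the lower quartile of levels. Alternatives were other normalizations, filters, probe sets, priors, weights, models, an offset and each array left out; 1 that leaves out 2 arrays was added after seeing the data.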

Additional observations from a re-analysis of the deposited data

Results flagged for a closer look

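For the named genes, single arrays stood far from the other 5 of their genotype once the diet means were removed, with a gap to the nearest array, as a share of the range, above Dixon's 95% critical value. This was so in 28 of 364 sets of 6 arrays, and chance flags about 1 set in 20. KI_CD replicate 1 lay apart most often, in Susd4 (6.23), Fgf21 (7.97), Slc22a26 (10.34), Hnf4a (11.96), Cyp7b1 (8.09), Cpt2 (10.78), Cyp2c37 (11.33), Hsd3b5 (5.58), Slco1a1 (6.30) and Spc25 (7.04). WT_CD replicate 2 did so in Keg1 (11.23), Ccne2 (5.43), Cox4i1 (10.64) and Decr1 (10.41). KI_CD replicate 3 did so in Fnta (8.12), Ms4a1 (4.81) and Cel (5.21). KI_MR replicate 2 did so in Ahsg (13.63) and Des (10.12). WT_MR replicate 2 did so in Slco1a1 (7.35) and Tra2b (9.11). WT_MR replicate 3 did so in Ccne1 (6.83) and Oas2 (7.52). KI_MR replicate 1 did so in Srsf3 (10.46). KI_MR replicate 3 did so in Cox7a2 (9.84). WT_CD replicate 1 did so in Cyp26a1 (7.54). WT_CD replicate 3 did so in Slc25a1 (11.61). WT_MR replicate 1 did so in Pigr (10.92). The values in parentheses are log2 levels on that array.

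Probe sets without a single gene symbol were left out of the comparison. In a separate fit, limma called 12 of 13723 of them (0.0874%) between KI and WT liver, 9 higher and 3 lower.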

How the results depend on the processing

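The averaged comparison called 555 genes. It called 1911 with array weights (weights of 0.407 to 1.91), 1100 with the replicate number as a block, 4 with a minimum log2 difference of 0.5 (Cyp4a12a, Cyp4a12b, Elovl3 and Acnat2), and 16 on CD and 94 on MR alone, which use fewer arrays per genotype. With single arrays left out it called 145 to 1874, and 275 without KI_CD replicate 1 and KI_MR replicate 3 together, an alternative chosen after seeing the data. Counts stayed within 1.5 times of 555 under quantile normalization (436), median centring (524), filters on dim genes (601 and 602), averaged probe sets (538), all probe sets (579), a trended robust prior (450), the 4 group means (561), no diet covariate (371) and an offset of 16 (567). All called genes that were tested kept their sign under each of these. The prior, the 4 group means and the fit without diet change only the estimate of the spread, so no sign could change there. The other settings reuse the arrays that chose these genes. The cause of the higher counts was not tested.

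The labels do not say that replicate numbers pair the samples, and the data do not settle it. Same-numbered arrays of different groups had correlations of their deviations from -0.06 to 0.24, above 0 in 16 of 18 pairs and above 0.1 in 9. Other pairs ran from -0.25 to 0.20, above 0 in 10 of 36. Of 12 arrays, 7 correlated best with one of their own number, a hint from the data and not from the design. Under the block 551 of the 555 calls were kept, and 0 interactions were called, as with quantile normalization.

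The difference in Lmna, 0.47, was 0.43 with quantile normalization (limma adjusted p = 0.0509) and missed the threshold there, as at 0.63 on CD, at 0.31 on MR and at 0.47 against a minimum of 0.5. With single arrays left out it ranged from 0.37 to 0.51. The number of arrays, and rounding for dim genes, limits every value.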

Other observations

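A few gene families outside the lists were counted by symbol. They were picked after the values were seen, so their counts are a description with no test. Of 30 Mediator subunits, which link transcription factors to RNA polymerase, 4 rose and none fell (13.3%, against 2.78% of all genes), 23 were above 0 and the median was 0.12; they were Med12 (0.27), Med14, Med16 and Med23 (0.42). Of 18 Kdm histone demethylase genes 4 rose (22.2%), Kdm1a (0.33), Kdm2a, Kdm3b and Kdm5a, with a median of 0.19. Of 10 Chd chromatin remodellers Chd6 and Chd8 rose (20%). Of 10 Srsf splicing factors only Srsf3 (0.38) passed (10%). The acetyltransferase gene Crebbp (0.36) and the splicing factor gene Tra2b (0.45) rose too; the calls of Crebbp, Tra2b, Med12, Kdm1a and Srsf3 were lost in 9, 7, 7, 3 and 3 of 12 fits with an array left out. Of 347 Zfp zinc finger genes 7 rose and 1 fell (2.31%), a share near that of all genes.

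Single genes picked after their values were seen are given next. Of 4 measured Aldh1a genes Aldh1a1 and Aldh1a7 fell (50%), and the call of Aldh1a7 was lost in 8 of 12 fits with an array left out. Cyp26a1, which degrades retinoic acid, was at 5.39 to 7.54 in WT and 6.43 to 8.84 in KI arrays, with overlap (1.70 ± 0.41, limma adjusted p = 0.049, lost in 9 of 12 fits with an array left out). The leptin receptor gene Lepr rose (1.34 ± 0.29, limma adjusted p = 0.0315; lost in 7 of 12 fits). Falls were measured for the peroxisome division gene Pex11a at -0.76, the dienoyl-CoA reductase gene Decr1 at -0.71, the enoyl-CoA isomerase gene Eci1 at -0.58, the peroxisomal transporter gene Abcd3 at -0.56 and the carnitine carrier gene Slc25a20 at -0.54. Of these, the call of Eci1 alone held in all 12 fits. The kinetochore gene Spc25 (-1.17) and the organic anion transporter gene Slc22a7 (-1.0) also fell.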
